A study of Mus musculus with 8 samples.

Results

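The D-type cyclins Ccnd1, Ccnd2 and Ccnd3, the inhibitors of cyclin-dependent kinases (CDKs) Cdkn1a, Cdkn1b, Cdkn2a, Cdkn2b, Cdkn2c and Cdkn2d, and the retinoblastoma gene Rb1 were followed in cultured mouse muscle. These 10 genes were chosen by name, as genes that control the G1 phase of the cell cycle. They come from the 53647 genes counted in each library, and earlier results of these data were known at the choice. A filter on low counts passed 15603 genes, and 9 of the 10 were among them. The exception, Cdkn2b, had 0 to 3 counts in each library.

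RNA-seq libraries came from wild-type primary myotubes, the multinucleated fibres that muscle precursor cells (myoblasts) form by fusion. Pups of 2 to 3 days supplied the myoblasts, isolated from their limb muscles, and differentiation was started in medium holding 5% horse serum. The 4 groups, each with 2 libraries, were control myotubes and myotubes given interleukin 6 (IL6), oncostatin M (OSM) or leukaemia inhibitory factor (LIF) at 250 ng/ml for 48 h, and all cells were harvested 72 h after differentiation. These cytokines share the receptor subunit gp130, and the study's stated subject is OSM as a driver of muscle loss in cancer. No label says whether the 2 libraries of a group came from separate animals or dishes, so p-values measure the spread between these libraries, which may be technical.

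D-type cyclins bind and activate CDK4 and CDK6, which phosphorylate the retinoblastoma protein and so release E2F transcription factors that switch on genes of DNA synthesis. Proteins of the INK4 family (from Cdkn2a, Cdkn2b, Cdkn2c and Cdkn2d) bind CDK4 and CDK6 directly, and CIP/KIP proteins (p21 from Cdkn1a, p27 from Cdkn1b) bind cyclin-CDK complexes. When myoblasts become myotubes they leave the cell cycle for good, and high p21, high cyclin D3 and active retinoblastoma protein are known features of that exit. Transcript levels say nothing of the phosphorylation or turnover of these proteins.

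Library totals ran from 29482077 to 30025471 counts. Levels are given as CPM (counts relative to library size, after TMM scaling), and levels of different genes are compared only in CPM per kb of merged exon. The 10 myotube markers summed to between 21760 and 26410 CPM in every library, and none was at 0. The 6 myoblast markers summed to 572 to 622 CPM in control, 603 to 659 with IL6, 722 to 726 with LIF and 821 to 862 with OSM. Sdc4, at 320.4 and 313 CPM in control and 531 and 513 with OSM, made up most of that difference, while Pax7 went from 45.2 and 45 to 61.1 and 57.4. Macrophage markers summed to 7.96 to 9.3 CPM in control, 10.3 to 13.9 with IL6, 13.7 to 14.4 with LIF and 14 to 15.4 with OSM. Of the 2 that passed the filter, Cd68 and Mrc1 were called higher with OSM and Mrc1 with LIF. The other macrophage markers were near the limit of detection, with 0 to 1 counts per library for Adgre1, 0 to 3 for Ptprc, 1 to 7 for Csf1r and 1 to 5 for Lyz2. Fibroblast markers summed to 43.5 to 44.7 CPM in control and 29.2 to 43 with IL6. With LIF they summed to 35.4 to 37.8 CPM and with OSM to 29 to 36.2. Pdgfra was called higher and Pdgfrb lower with OSM. Endothelial markers reached at most 2.28 CPM. Of these markers, Lum, Tcf21 and Emcn had no count in any library. The calls of Mrc1 for OSM and LIF, and of Pdgfra and Pdgfrb for OSM, did not hold in every fit that left out 1 library.

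Promoter windows are shown for the 3 inhibitors called as changed against control. These were Cdkn1b (higher) and Cdkn2c (lower) with OSM, and Cdkn2d (higher) with LIF. Cdkn1b is of the CIP/KIP family, and Cdkn2c and Cdkn2d are of the INK4 family. The sequences are RefSeq's for build GRCm38.p6, from 250 bases before to 50 bases after an annotated start, read 5′ to 3′ on the gene's strand. Capitals mark a GC box (GGGCGG) or a CCAAT box (CCAAT) on either strand, which are general promoter elements. Cdkn1b lies at chr6:134920151-134920450 on the plus strand, Cdkn2c at chr4:109666707-109667006 on the minus strand and Cdkn2d at chr9:21291160-21291459 on the minus strand.
Cdkn1b: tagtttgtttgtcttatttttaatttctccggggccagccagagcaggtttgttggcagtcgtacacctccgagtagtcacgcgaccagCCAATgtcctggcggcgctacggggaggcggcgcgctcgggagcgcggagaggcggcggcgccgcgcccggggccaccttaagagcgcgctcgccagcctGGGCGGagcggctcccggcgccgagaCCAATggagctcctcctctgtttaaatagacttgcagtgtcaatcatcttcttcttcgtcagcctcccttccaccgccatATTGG
Cdkn2c: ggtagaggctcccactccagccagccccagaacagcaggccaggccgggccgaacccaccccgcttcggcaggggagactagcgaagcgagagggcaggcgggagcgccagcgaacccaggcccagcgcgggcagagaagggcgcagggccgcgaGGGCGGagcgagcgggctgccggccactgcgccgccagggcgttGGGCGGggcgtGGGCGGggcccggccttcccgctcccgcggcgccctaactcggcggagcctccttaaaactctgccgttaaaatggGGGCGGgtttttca
Cdkn2d: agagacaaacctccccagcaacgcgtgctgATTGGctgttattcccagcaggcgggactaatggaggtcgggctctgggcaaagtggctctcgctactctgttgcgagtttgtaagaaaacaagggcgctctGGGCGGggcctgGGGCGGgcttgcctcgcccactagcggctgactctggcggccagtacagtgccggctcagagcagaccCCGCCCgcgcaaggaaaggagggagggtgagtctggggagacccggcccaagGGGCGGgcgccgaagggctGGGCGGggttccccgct
The Cdkn1b window held 1 GC box and 3 CCAAT boxes, that of Cdkn2c 4 GC boxes, and that of Cdkn2d 5 GC boxes and 1 CCAAT box. Cdkn2c has a further start in the table, at chr4:109665323-109665622, whose window held 1 CCAAT box and no GC box. Among 32851 RefSeq promoter windows of the same length, 35.7% held a GC box and 37.4% a CCAAT box. None of the 11 windows of the 7 genes with an entry held the STAT motif TTCNNNGAA, which 8.3% of all windows held. The FOXO motif GTAAACA (3.65% of windows) was found once, in a Ccnd3 window, and an E2F motif (TTTCCCGC or TTTGGCGC, 1.56% of windows) once, in a Cdkn2a window. These matches are descriptions of the letters, and draw on both strands. Ccnd1, Ccnd2 and Rb1 had no entry.

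OSM lowered Ccnd1 and raised Ccnd2 and Cdkn1b. LIF also lowered Ccnd1, with no call for Ccnd2 or Cdkn1b, and with IL6 no change was detectable in any of these genes. Of the 9 tested genes, 5 were called for OSM against control (2 higher, 3 lower), against 21.4% of all tested genes. For LIF against control 2 of 9 were called (1 higher, 1 lower), against 7.66% of all tested genes. For IL6 against control 0 of 9 were called by edgeR, against 0.00% of all tested genes, and 0 of 9 at an unadjusted p under 0.05, as 795 of 15603 genes were. DESeq2 also called 0 of 9, and 17 of 10339 genes in all. The 3 comparisons share the control libraries. Because the genes were chosen with earlier results of these data known, the shares of the 9 are descriptive only.

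**Figure D1:**
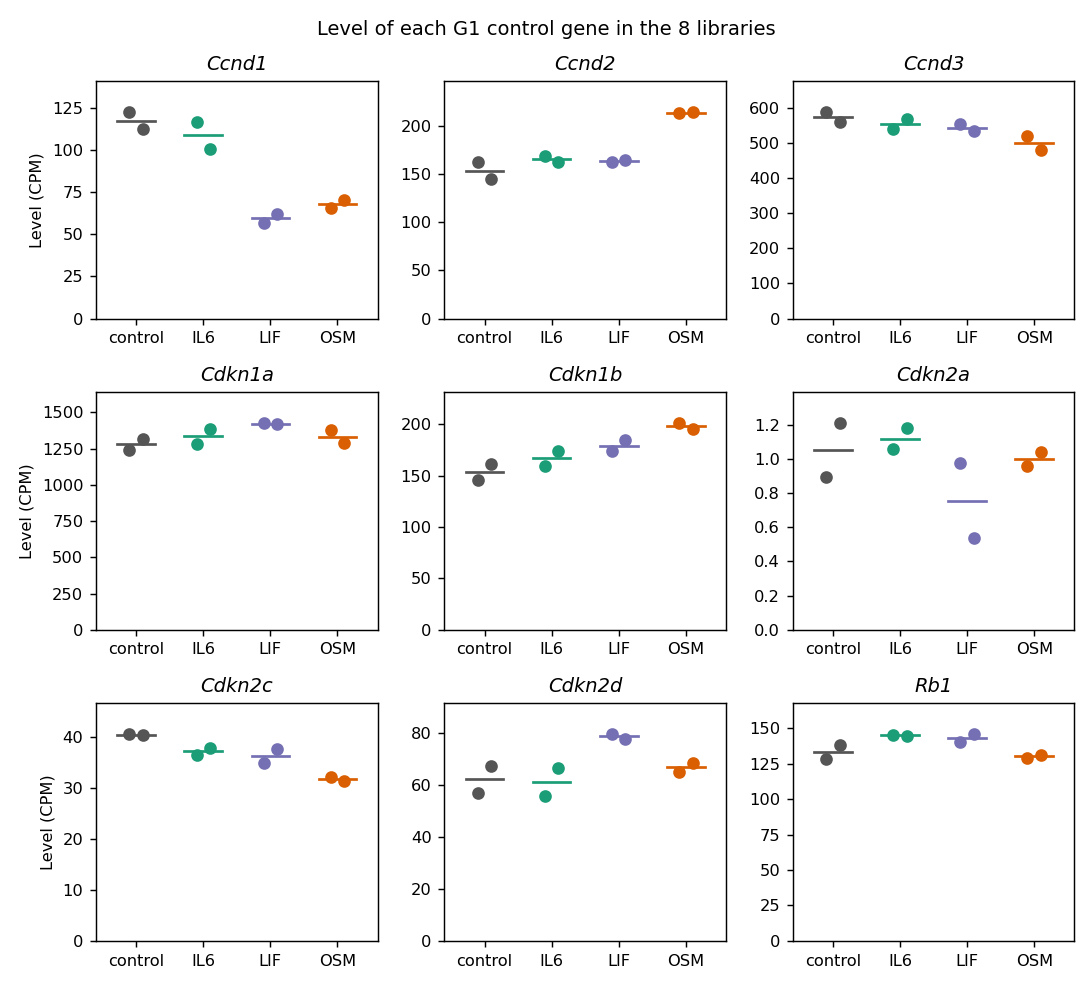
Level of each tested G1 control gene in CPM (vertical axis, from 0) in the 8 libraries, by group; points are libraries and lines are group means. The OSM and LIF points of Ccnd1 (56.8 to 70.2 CPM) lie below all control and IL6 points (101 to 122 CPM), and the OSM points of Ccnd2 (213 and 215 CPM) lie above all others.

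Among the D-type cyclins, Ccnd1 (ENSMUSG00000070348), the cyclin most closely tied to mitogen signals, showed the largest log2 change of the 9 tested genes. It stood at 122 and 112 CPM in the control libraries, 117 and 101 with IL6, 56.8 and 62.1 with LIF, and 65.6 and 70.2 with OSM. Every OSM and LIF library was below every control and IL6 library, while IL6 and control overlapped. Ccnd1 fell with OSM by 0.79 on the log2 scale (95% interval −0.97 to −0.61, adjusted p 1.3e-05, edgeR), to 0.579 of control. With LIF it fell by 0.98 (−1.16 to −0.80, adjusted p 1.71e-05, edgeR), to 0.507 of control. For IL6 the log2 difference was −0.11 (−0.28 to 0.06). In the GENCODE M21 annotation 23.4% of the exon bases of Ccnd1 overlap LTO1 on the opposite strand, and whether strand was used in counting is not given in the sources used here. LTO1 had 380 to 525 counts per library, against 1690 to 3570 for Ccnd1, and was not called (log2 difference 0.16 with OSM and 0.00 with LIF).

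Ccnd2 (ENSMUSG00000000184), a D-type cyclin with the same kinase partners, moved the other way and was called for OSM. Its levels were 162 and 145 CPM in control, 169 and 163 with IL6, 163 and 165 with LIF, and 213 and 215 with OSM. The OSM libraries were above the other 6, which ranged from 145 to 169 CPM. Ccnd2 rose with OSM by 0.48 (95% interval 0.34 to 0.62, adjusted p 0.000123, edgeR), 1.39 times control. The differences for LIF, 0.10 (−0.04 to 0.23), and IL6, 0.11 (−0.03 to 0.25), were not called. OSM against LIF, tested directly, gave 0.38 (0.25 to 0.52, adjusted p 0.00186, edgeR), so the response of Ccnd2 differed between these cytokines.

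Ccnd3 (ENSMUSG00000034165), the D-type cyclin that accumulates in differentiating muscle, had the highest level of the 3. It stood at 588 and 560 CPM in control, 539 and 569 with IL6, 552 and 534 with LIF, and 518 and 480 with OSM. The OSM libraries were the lowest of the 8, by a small margin. Ccnd3 fell with OSM by 0.20 (95% interval −0.34 to −0.07, adjusted p 0.0365, edgeR). This call was lost without control replicate 1, LIF replicate 1, LIF replicate 2, OSM replicate 1 or OSM replicate 2, with adjusted p between 0.0771 and 0.319. The LIF difference was −0.08 and the IL6 difference −0.05, neither called.

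Per kb of exon, Ccnd3 made up 61.4% ± 0.846 of D-type cyclin RNA in control, Ccnd1 23.4% ± 0.333 and Ccnd2 15.3% ± 0.512 (SD, n = 2). With OSM the shares were 60.5% ± 1.81 for Ccnd3, 15.4% ± 1.1 for Ccnd1 and 24.2% ± 0.694 for Ccnd2. With LIF they were 67.3% ± 1.23, 13.7% ± 0.936 and 18.96% ± 0.299 in the same order. The ratio of Ccnd1 to Ccnd2 per kb was 1.51 and 1.55 in the control libraries and 1.38 and 1.23 with IL6. It was 0.698 and 0.751 with LIF and 0.614 and 0.654 with OSM. Per kb, Ccnd1 exceeded Ccnd2 in each control and IL6 library and was below it in each LIF and OSM library. That crossing, like the shares, rests on the merged exon lengths in M21, 4.709 kb for Ccnd1 and 9.409 kb for Ccnd2. In CPM, Ccnd1 was below Ccnd2 in every library, at 122 and 112 against 162 and 145 in control. The fall of the ratio between groups does not depend on these lengths. The sum of the 3 cyclins was 110.2 and 103 CPM per kb in control, 104 and 103.5 with IL6, 92.3 and 91.6 with LIF, and 95.7 and 92.4 with OSM. Both OSM and LIF sums lay below both control sums. An exact two-sided permutation test of 2 libraries against 2 cannot go below p = 0.333, which is the value found for both sums (adjusted p 0.5 over 12 comparisons of sums and shares).

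**Figure D2:**
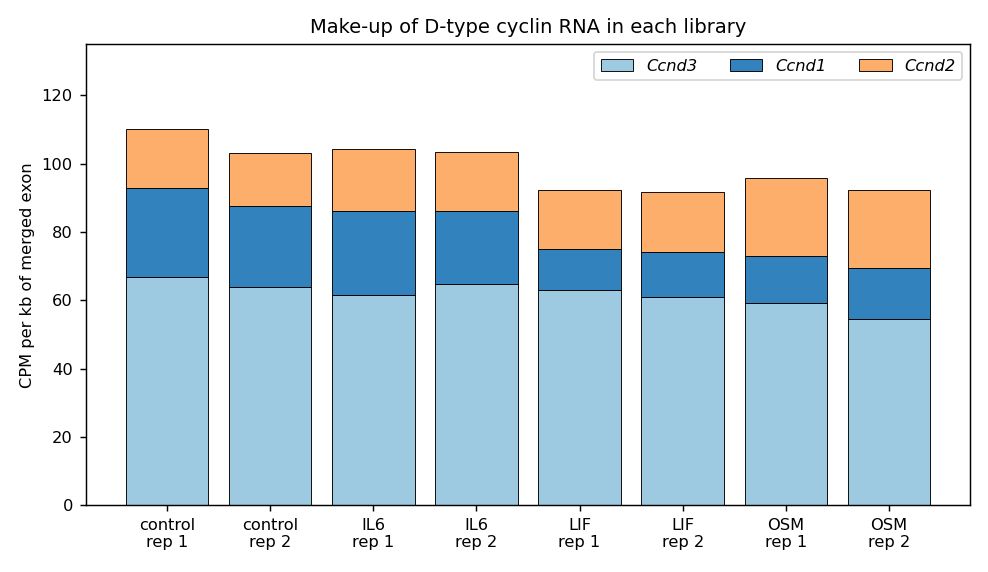
Level of the 3 D-type cyclins in CPM per kb of merged exon (vertical axis, from 0), stacked for each of the 8 libraries. The Ccnd1 segment is larger than the Ccnd2 segment in the control and IL6 libraries and smaller in the LIF and OSM libraries, and the total is 91.6 to 95.7 with LIF or OSM against 103 and 110.2 in control.

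The CIP/KIP inhibitors did not move as a group. Cdkn1a (ENSMUSG00000023067), whose product p21 is a p53 target and a marker of cell cycle exit in muscle, had the highest level of the set. It stood at 1240 and 1319 CPM in control, 1284 and 1389 with IL6, 1426 and 1419 with LIF, and 1379 and 1287 with OSM. The LIF libraries were the highest of the 8 and the OSM libraries overlapped control. Cdkn1a was not called in any of the 6 comparisons. The log2 difference was 0.06 with OSM (95% interval −0.08 to 0.20), 0.15 with LIF (0.01 to 0.30, adjusted p 0.211, edgeR) and 0.06 with IL6 (−0.08 to 0.21). None of these intervals reached beyond 0.30. In M21 AC167363.2, with 9 to 18 counts per library, overlaps 7.68% of the exon bases of Cdkn1a.

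Cdkn1b (ENSMUSG00000003031), which encodes p27, was the inhibitor that rose with OSM. Its levels were 145 and 162 CPM in control, 159.7 and 174 with IL6, 174 and 184 with LIF, and 201 and 195 with OSM. The OSM libraries were above the other 6, and the LIF libraries were above control but overlapped IL6. Cdkn1b rose with OSM by 0.37 (95% interval 0.22 to 0.52, adjusted p 0.00187, edgeR), 1.29 times control. The LIF difference of 0.22 (0.07 to 0.37, adjusted p 0.0703, edgeR) was not called, and that for IL6 was 0.12 (−0.03 to 0.27). The LIF call was gained with the replicate block (adjusted p 0.0236), with no filter, and without control replicate 2 or either IL6 library. OSM against LIF gave 0.14 (−0.0040 to 0.29), not called, so a difference between these cytokines in Cdkn1b was not shown.

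Cdkn1c, which encodes p57 and completes the CIP/KIP family, was outside the set and is given as its missing relative. It stood at 22.4 and 25.1 CPM in control, 15 and 20.5 with IL6, 16.4 and 13.9 with LIF, and 13.3 and 15.3 with OSM. All 6 cytokine libraries were below both control libraries. Cdkn1c fell by 0.73 with OSM (SE 0.14, adjusted p 0.00312, edgeR) and by 0.65 with LIF (SE 0.14, adjusted p 0.0145, edgeR). The IL6 difference was −0.43 (SE 0.14, adjusted p 0.943, edgeR). The OSM call was lost without OSM replicate 1 and the LIF call without control replicate 2 or LIF replicate 2, while IL6 was called without IL6 replicate 2 or with no filter. Per kb, Cdkn1c was at 11.7 ± 0.94 CPM in control (SD, n = 2), below Cdkn1b at 33.7 ± 2.53 and Cdkn1a at 360.1 ± 15.7.

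Of the INK4 genes, Cdkn2c and Cdkn2d were the ones expressed at more than trace levels. Neither was called for OSM against LIF, so a difference between these cytokines was not shown for either. Cdkn2c (ENSMUSG00000028551), which encodes p18, stood at 40.5 and 40.4 CPM in control, 36.6 and 37.8 with IL6, 34.8 and 37.6 with LIF, and 32.1 and 31.3 with OSM. The control libraries were the highest of the 8 and the OSM libraries the lowest. Cdkn2c fell with OSM by 0.35 (95% interval −0.51 to −0.20, adjusted p 0.00356, edgeR), to 0.783 of control. The differences with LIF, −0.16 (−0.31 to −0.0039, adjusted p 0.231, edgeR), and IL6, −0.12 (−0.28 to 0.03), were not called.

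Cdkn2d (ENSMUSG00000096472), which encodes p19 of the INK4 family, was higher with LIF. Its levels were 56.7 and 67.4 CPM in control, 55.6 and 66.4 with IL6, 79.4 and 77.7 with LIF, and 65 and 68.4 with OSM. The LIF libraries were above the other 6, while control, IL6 and OSM overlapped and control replicate 1 and IL6 replicate 1 were the lowest. Cdkn2d rose with LIF by 0.34 (95% interval 0.14 to 0.54, adjusted p 0.0437, edgeR), 1.27 times control. The call was lost without control replicate 1, LIF replicate 1, LIF replicate 2, OSM replicate 1 or OSM replicate 2, with adjusted p from 0.0827 to 0.243. The OSM difference was 0.10 (−0.10 to 0.31), not called, and OSM against LIF gave −0.24 (−0.44 to −0.03, adjusted p 0.164, edgeR).

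Cdkn2a and Cdkn2b, neighbouring genes whose products p16 and p15 build up in senescent cells, were near the limit of detection. Cdkn2a (ENSMUSG00000044303) had 16 to 36 counts per library, 0.54 to 1.21 CPM. Its count merges the transcripts of p16 and of ARF, which start at separate promoters, so neither can be read alone. Its intervals were wide, −0.80 to 0.65 for OSM and −1.23 to 0.28 for LIF, and no difference was detectable at this depth. Cdkn2b (ENSMUSG00000073802) had 0 counts in both control libraries, 3 and 2 with IL6, 0 and 1 with LIF, and 1 and 0 with OSM. A count of 0 allows up to 3 counts, so these levels cannot be told apart, and such limits cover counting error only.

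Rb1 (ENSMUSG00000022105), the retinoblastoma gene, was not called in any of the 6 comparisons. It stood at 128 and 138 CPM in control, 145 and 144 with IL6, 140.3 and 146 with LIF, and 129 and 131 with OSM. The OSM libraries lay within the control range and the IL6 and LIF libraries just above it. The log2 difference was −0.03 with OSM (95% interval −0.16 to 0.10), 0.10 with LIF (−0.03 to 0.23) and 0.12 with IL6 (−0.01 to 0.25). In M21, Rcbtb2 overlaps 8.11% of the exon bases of Rb1 and Lpar6 6.78%.

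**Figure D3:**
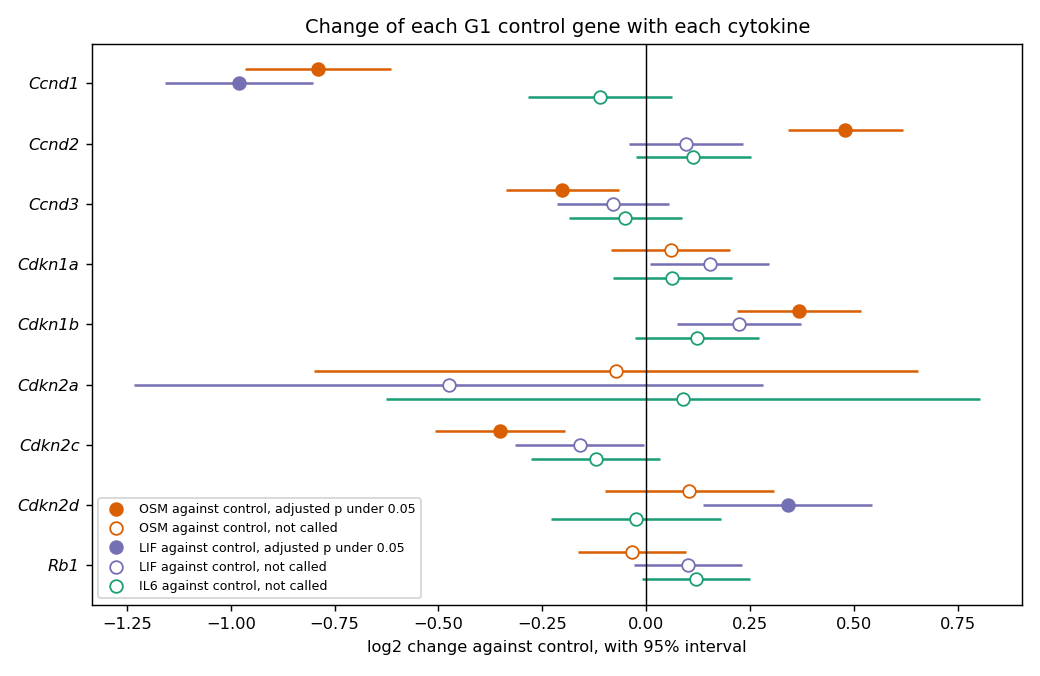
Fitted log2 change against control (horizontal axis) of the 9 tested genes for OSM, LIF and IL6, with 95% intervals; filled points have an adjusted p under 0.05 and open points do not. Ccnd1 stands at −0.79 with OSM and −0.98 with LIF, Ccnd2 at 0.48 with OSM, and the IL6 points lie between −0.12 and 0.12.

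In control myotubes the order of levels per kb was Cdkn1a at 360.1 CPM, Ccnd3 at 65.4, Cdkn2d at 39.4, Cdkn1b at 33.7, Ccnd1 at 24.9, Rb1 at 22.2, Ccnd2 at 16.3, Cdkn2c at 15.1 and Cdkn2a at 0.896. No neighbours in that order overlapped between their control libraries. The order changed below Ccnd3. With OSM, Cdkn1b (43.5) and Cdkn2d (42.4) overlapped, Ccnd2 (22.7) stood above Rb1 (21.7), and Ccnd1 (14.4) came after both. With LIF, Ccnd1 (12.6) was the lowest of the genes apart from Cdkn2a and Cdkn2b, and it overlapped Cdkn2c (13.5). With IL6, Cdkn2d overlapped Cdkn1b, and Rb1 overlapped Ccnd1.

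OSM and LIF were then compared directly. Of the 9 tested genes 1, Ccnd2, was called, against 8.04% of all tested genes. A fit on the 4 OSM and LIF libraries alone called 6 of the 9, adding Ccnd1 (0.19, adjusted p 0.0239), Cdkn1b, Cdkn2c, Cdkn2d and Rb1, but it also called more genes in all, 2928 of 15092 tested. Ccnd1 was higher with OSM than with LIF by 0.19 (95% interval 0.01 to 0.37, adjusted p 0.209, edgeR) in the fit of all 8 libraries, which is not a call. Ccnd1 therefore fell with both cytokines, and a difference in the size of its fall was not shown in that fit.

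OSM against IL6 called 4 of 9, against 15.5% of all tested genes. Ccnd1 was lower by 0.68 (95% interval −0.85 to −0.50) and Ccnd2 higher by 0.37 (0.23 to 0.50) with OSM than with IL6. Cdkn1b was higher by 0.25 (adjusted p 0.0273, edgeR) and Cdkn2c lower by 0.23 (adjusted p 0.0476, edgeR), and both calls were lost without IL6 replicate 1, either LIF library or either OSM library (2 calls left). Cdkn2c lost its call in 11 of 14 alternatives, DESeq2 among them (adjusted p 0.133). LIF against IL6 called 1 of 9, against 2.78% of all tested genes, with Ccnd1 lower by 0.87 (−1.05 to −0.69, adjusted p 0.000106, edgeR). Cdkn2d was at 0.36 in this comparison (adjusted p 0.0603, edgeR) and was called with DESeq2 (0.0219) and without control replicate 1 (0.0196), control replicate 2 (0.0198) or IL6 replicate 2 (0.00754).

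The other genes of the pathway were read from 7 lists of 67 genes, all tested. For OSM against control 37 were called (55.2%, against 21.4% of all tested genes), 5 higher and 32 lower. That count was smaller when either OSM library was left out. The median log2 change of the 67 was −0.22, against 0.00 over all tested genes. Of all tested genes 7.66% were called for LIF against control and 8.04% for OSM against LIF. For LIF 22 were called, 2 higher and 20 lower (median −0.13), and this count fell to 10 without control replicate 2, 12 without LIF replicate 1 and 4 without LIF replicate 2. For IL6 0 were called by edgeR, with 2 of 67 at an unadjusted p under 0.05 (Cdkn1c and Fbxw7), no larger a share than the 795 of 15603 over all tested genes.

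Among the kinases that D-type cyclins bind, Cdk6 was called higher with OSM and LIF, and Cdk4 was not called. Cdk4, the partner kinase with the higher level (42.5 ± 1.24 CPM per kb in control, SD, n = 2), was at −0.13 with OSM, −0.08 with LIF and −0.02 with IL6, none called. Cdk6, whose level was 3.35 ± 0.048 CPM per kb in control, stood at 46.5 and 47.4 CPM in control, 49.4 and 51.8 with IL6, 54.1 and 59.7 with LIF, and 56 and 60.5 with OSM. Each cytokine library was above both control libraries. Cdk6 rose by 0.31 with OSM (SE 0.073, adjusted p 0.00813, edgeR) and by 0.28 with LIF (SE 0.073, adjusted p 0.0342, edgeR). The OSM call was lost without OSM replicate 2, and the LIF call without either control, LIF or OSM library. Cdk6 was the 1 gene called of the 9 G1 kinases and E-type cyclins for each of OSM and LIF. That is 11.1% of the list, against 21.4% (OSM) and 7.66% (LIF) of all tested genes.

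Of 12 other pocket proteins and E2F or DP factors, 5 fell with OSM and 0 rose (41.7% called, against 21.4% of all tested genes). Rbl1 (p107), a relative of the retinoblastoma protein found in cycling cells, went from 23.6 and 24.9 CPM in control to 16 and 19.3 with OSM, by −0.46 (SE 0.097, adjusted p 0.00411, edgeR). Rbl2 (p130), the relative that prevails in quiescent cells, was at 0.05 and not called. The atypical repressors E2f7 and E2f8, themselves induced in S phase, fell by 1.06 and 0.57, and the activator E2f2 fell by 0.50. Tfdp1, a dimer partner of E2F chosen after its value was seen, fell by 0.39. Rbl1 lost its call without OSM replicate 1 and E2f2 without OSM replicate 2. With LIF, E2f7 fell by 0.43 (adjusted p 0.0483, edgeR) and was the 1 call of 12, 8.33% against 7.66% of all tested genes. That call was lost with DESeq2, with RLE scaling, in the fit of the 2 groups, and without control replicate 2 or any LIF or OSM library.

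Genes that control the turnover of p27 and D-type cyclins moved both ways with OSM. Of 10, 2 fell and 3 rose (50% called, against 21.4% of all tested genes). Skp2, the ubiquitin ligase subunit that targets p27, stood at 28.3 and 32.5 CPM in control and 18.9 and 21.9 with OSM, a log2 change of −0.58 (SE 0.11, adjusted p 0.00215, edgeR). Its cofactor Cks1b stood at 32.6 and 36.8 CPM in control, 31.1 and 31.2 with IL6, 25.5 and 23.6 with LIF, and 14.9 and 16.3 with OSM. Cks1b fell by 1.16 with OSM (SE 0.091, adjusted p 9.99e-07, edgeR) and by 0.50 with LIF (SE 0.088, adjusted p 0.00349, edgeR), the LIF call being lost without LIF replicate 2. Cks1b and Skp2 were lowest in the OSM libraries, the same libraries in which Cdkn1b was highest. The E2F target genes and proliferation markers given below were lowest there too, and a link to Cdkn1b was not tested. Skp2 lost its call without OSM replicate 1.

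Dyrk1b, a kinase that phosphorylates p27 and cyclin D1 and is known in differentiating muscle, rose with OSM by 0.45 (SE 0.11, adjusted p 0.00889, edgeR). Uhmk1 (0.25) and Fbxo31 (0.25), chosen after their values were seen, were the other two that rose. None of these 3 was called without control replicate 1, OSM replicate 1 or OSM replicate 2, and Fbxo31 was also lost without either LIF library, so the 5 calls of this list fell to 2, 1 and 2 in those fits. With LIF, Fbxw7, a ubiquitin ligase subunit, fell by 0.32 (adjusted p 0.0329, edgeR), a call lost without either control or either LIF library.

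The E2F target genes of S phase fell together. With OSM 15 of 15 were called lower, against 21.4% of all tested genes called either way, with a median log2 change of −0.94. With LIF 9 of 15 were called lower (median −0.33), against 7.66% of all tested genes called either way. The LIF count fell most without control replicate 2, LIF replicate 1 or LIF replicate 2. With IL6 0 of 15 were called (median −0.07). Ccna2, the S phase cyclin, stood at 59.8 and 72 CPM in control, 57.1 and 61.7 with IL6, 47.7 and 43.8 with LIF, and 15.7 and 17 with OSM. It fell by 2.01 with OSM (SE 0.099, adjusted p 2.1e-08, edgeR) and by 0.53 with LIF (SE 0.091, adjusted p 0.00347, edgeR). Mcm5, a subunit of the replicative helicase, fell by 1.88 and 0.64, Tk1, thymidine kinase, by 1.84 and 0.37, and Tyms, thymidylate synthase, by 1.51 and 0.52. The LIF calls of Ccna2, Tk1 and Tyms did not hold in every fit that left out 1 library. That of Tk1 was also lost with DESeq2 and in the fit of the 2 groups. OSM against LIF called 13 of 15 lower with OSM (median −0.57), against 8.04% of all tested genes called either way. The E2F targets named here were lowest in the OSM libraries, whereas Ccnd1 was lowest in the LIF libraries, by a margin over OSM that was not called.

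Proliferation markers moved in the same order. The 8 genes summed to 790 and 935 CPM in control, 746 and 806 with IL6, 623 and 574 with LIF, and 222 and 267 with OSM. With OSM 8 of 8 were called lower (median −1.81), against 21.4% of all tested genes called either way. With LIF 7 of 8 were called lower (median −0.53), against 7.66% of all tested genes. The LIF count fell most without control replicate 2, LIF replicate 1 or LIF replicate 2. Mki67, a protein of cycling cells, stood at 260.2 and 301 CPM in control and 62.6 and 75.6 with OSM. Birc5, Ccnb1 and Aurkb, genes of mitosis, fell with OSM by 2.03, 1.99 and 1.81. In these bulk libraries, fewer dividing cells and less of these RNAs per cell cannot be told apart. Myoblast markers went the other way, set against 21.4% (OSM) and 7.66% (LIF) of all tested genes called. With OSM 4 of 6 were higher (Pax7, Myf5, Sdc4 and Chrd) and with LIF 1 of 6, Sdc4. Without OSM replicate 1, or with DESeq2, Pax7 and Sdc4 kept the call and the other two lost it. Of the myotube markers 4 of 10 were lower with OSM, a count that ranged from 1 to 8 over the alternatives, and Myh8 and Myog were lower with LIF. Both LIF calls were lost without LIF replicate 1 or LIF replicate 2, and that of Myh8 also when any 1 control or OSM library was left out. The part of cell makeup in the changes of the cyclins and inhibitors was not tested.

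**Figure D4:**
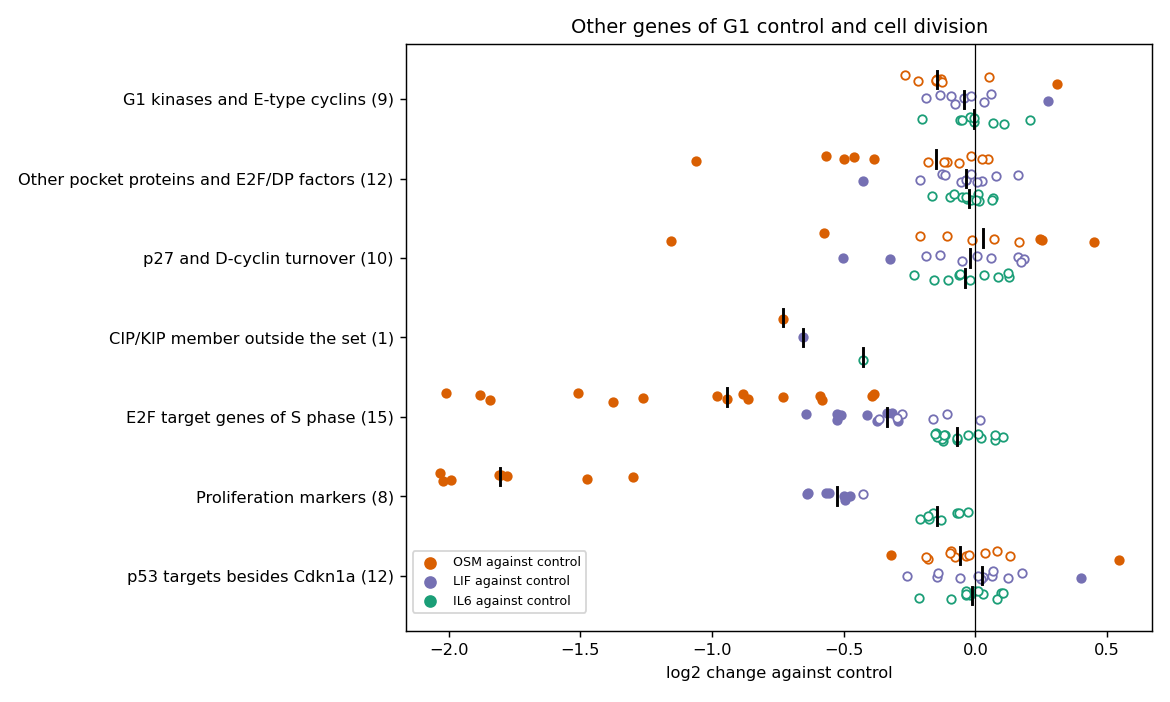
Fitted log2 change against control (horizontal axis) of each gene in the 7 pathway lists, by cytokine, with the number of genes tested beside each list; filled points have an adjusted p under 0.05 and black bars are medians. All 15 E2F targets and all 8 proliferation markers are filled and left of 0 for OSM, with medians of −0.94 and −1.81, and no IL6 point is filled.

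Of 12 p53 targets other than Cdkn1a, 1 rose and 1 fell with OSM, and 1 rose with LIF. These shares are near the 21.4% and 7.66% of all tested genes called for OSM and LIF. Btg2, an antiproliferative gene, stood at 46.4 and 49.1 CPM in control, 51.8 and 50.8 with IL6, 60.8 and 65.2 with LIF, and 69.7 and 69.5 with OSM. It rose by 0.54 with OSM (SE 0.066, adjusted p 5.72e-05, edgeR) and by 0.40 with LIF (SE 0.067, adjusted p 0.00256, edgeR), the latter call lost without LIF replicate 2. Gadd45a, a stress gene that binds p21, fell by 0.32 with OSM (SE 0.062, adjusted p 0.0024, edgeR).

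Genes with the most similar pattern to each called gene were found by Pearson r of log2 CPM over the 8 libraries, among 10868 genes whose mean count was 100 or more. These correlations describe points that share libraries and groups. For Ccnd1 they were Trib2 (r = 0.993), a pseudokinase, Gstcd (0.992) and Enc1 (0.990). Trib2 went from 38.5 and 38.1 CPM in control to 27 and 28.7 with LIF and 28.1 and 29.7 with OSM, and the LIF and OSM libraries overlapped. The closest gene was Marveld1 for Ccnd2 (0.992), Ndufs8 for Ccnd3 (0.982), Ralb for Cdkn1b (0.983), Fut10 for Cdkn2c (0.986) and Hrc for Cdkn2d (0.974). Marveld1 was at 43 and 43.7 CPM with OSM against 31.8 to 36.4 in the other 6 libraries. Hrc, which encodes a calcium-binding protein of the sarcoplasmic reticulum, was not itself called in any cytokine comparison with control.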

How the data were processed

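RNA-seq of 8 libraries gave 1 deposited file of raw read counts per gene for each library, with replicates not pooled. Libraries were made with a stranded mRNA kit, per the labels' protocols. FastQC 0.11.9, MultiQC 1.12, Trim Galore 0.6.5, STAR 2.7.3a, HTSeq 0.11.1, DESeq2 1.34.0 and build GRCm39 are named in the submitters' processing notes, with no settings. The annotation release and strand setting are not given in the sources used here. Rows naming no gene (11.7% to 12.7% of each file's counts) were left out of library sizes and tests. Replicates of a group differed by more than counting error (chi-square per gene 3.04 to 12.3). Genes with few counts, such as Cdkn2a, are measured with less precision.

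Counts were tested with edgeR 4.0.16 in R 4.3.3: filterByExpr (minimum count 10), TMM scaling, a robust quasi-likelihood fit of 4 group means over the 8 libraries, leaving 4 residual degrees of freedom, with Benjamini-Hochberg adjustment over 15603 genes in each of 6 contrasts. A gene was called, and said to rise or fall, at an adjusted p under 0.05. The procedure was tested on simulated data. Exon lengths, overlaps and symbols came from GENCODE M21 on GRCm38, another build than that of the counts. RefSeq promoter windows matched 7 of the 10 genes.

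The members and lists were chosen with earlier results of these data known. The text names all members, up to 4 genes per pathway list with the largest change among those called for OSM or LIF, Cdk4, Cdk6, Cdkn1c, Rbl1 and Rbl2, and the genes most similar in pattern. Marker lists covered myotubes, myoblasts, fibroblasts, macrophages and endothelial cells. Alternatives were DESeq2 1.42.0, RLE and upper-quartile scaling, no filter, a replicate block, a fit of the 2 groups compared, and leaving out each library.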

Additional observations from a re-analysis of the deposited data

How the results depend on the processing

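Of 13 calls among 54 gene-by-comparison results, 9 held under each of the 14 alternatives, and no called change reversed. Direction reversed under some alternative in 10 results, none of them called, and the cause was not tested. Leaving out 1 library at a time, the log2 difference with OSM ran from −0.27 to 0.17 for Cdkn2a, from −0.015 to 0.24 for Cdkn2d and from −0.089 to 0.032 for Rb1. With IL6 it ran from −0.11 to 0.33 for Cdkn2a and from −0.16 to 0.11 for Cdkn2d. For OSM against IL6, Cdkn1a ran from −0.053 to 0.056, and was 0.00195 with DESeq2 and 0.00566 with no filter. For LIF against IL6 the range was −0.042 to 0.012 for Ccnd2, −0.065 to 0.011 for Ccnd3, −0.093 to 0.016 for Cdkn2c and −0.046 to 0.0082 for Rb1.

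Leaving out 1 library at a time, the number of the 9 genes called ran from 1 to 3 for LIF against control, 2 to 4 for OSM against IL6 and 1 to 2 for LIF against IL6. Of the 67 pathway genes, it ran from 4 to 24 for LIF and 0 to 1 for IL6 against control, with 1 for IL6 with no filter. With 1 library left in a group, that library is assumed to vary like the other groups. OSM against LIF gave 2 calls with no filter, 2 with the replicate block and 6 in the fit of the 2 groups. LIF against IL6 gave 2 with DESeq2, 2 with no filter and 2 with the replicate block. With the replicate block Cdkn1b was gained for LIF against control. Same-numbered libraries deviated together with correlations of 0.0071 to 0.18 over the 6 pairs of groups, all positive. The labels do not say what the numbers mark, so the main fit did not treat them as pairs, and a shared origin is not known. With the replicate block 3966 genes were called for OSM against control and 1670 for LIF against control. The main fit called 3335 and 1195. Scaling by RLE or upper quartile moved the median of all genes by less than 0.1. For Cdkn2a and Cdkn2b, depth limits what can be seen.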
